A study of Homo sapiens with 54 samples.

Results

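The urokinase and plasminogen activation genes described here are 5 protein-coding genes, taken by symbol from the 50037 gene rows of the table: PLAU (gene ID 5328), PLAUR (5329), PLAT (5327), SERPINE2 (5270) and SERPINB2 (5055). All 5 had a row. PLAU encodes urokinase and PLAT encodes tissue plasminogen activator, serine proteases that cut the zymogen plasminogen into plasmin. PLAUR encodes the membrane-anchored receptor that holds urokinase at the cell surface. SERPINE2 (protease nexin-1) and SERPINB2 (plasminogen activator inhibitor type 2) are serpins, inhibitors that trap their protease in a covalent complex. Plasmin dissolves fibrin and degrades matrix proteins, and in colon and liver tumours urokinase and its receptor are known for their link to invasion.

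RNA sequencing of poly(A) RNA was carried out on 2 established human cancer lines, HCT116 from a colon carcinoma and HepG2 from a liver tumour. Each line was exposed for 3 h or 6 h to interleukin 6 (IL-6, 50 ng/mL), interleukin 10 (IL-10, 50 ng/mL), tumour necrosis factor alpha (TNF-α, 100 ng/mL) or Torin1 (1 µM), an inhibitor of the mTOR kinase. The negative control (NC) received medium alone and has no hour in the labels. The 9 groups of each line held 3 libraries each, 54 libraries in 18 groups. Neither line carries an engineered allele in the labels, all groups of a line share its growth medium, and a single line stands for each tumour type.

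Levels are FPKM, read fragments scaled to transcript length and library size, so that genes can be compared per length. Reads on genes, recovered from the steps between low FPKM values, came to 38.5 to 55.7 M reads per HCT116 library and 46.3 to 93.7 M reads per HepG2 library. HepG2 had 7400 to 9060 FPKM of ALB, 3290 to 3820 FPKM of AFP, 513 to 756 FPKM of APOA1, 278 to 399 FPKM of SERPINA1 and 67.2 to 149 FPKM of TTR. APOB, another hepatocyte marker, did not pass 0.238 FPKM there. HCT116 had 1.41 to 3.13 FPKM of the colon marker CDX2, which did not pass 0.0273 FPKM in HepG2. The other 5 colon markers examined did not mark HCT116 out. EPCAM was at 162 to 189 FPKM in HCT116 and 104 to 117 FPKM in HepG2, VIL1 was near 0 in HCT116 and at 38.2 to 52.7 FPKM in HepG2, and CDX1, KRT20 and LGALS4 were at or near 0 in both. Of the blood cell markers, PTPRC did not pass 0.00861 FPKM in any library. CD68 was at 24.2 to 35.6 FPKM in HepG2 and 2.86 to 6.55 FPKM in HCT116, and CD14 reached 2.53 FPKM in HepG2 and 0.219 FPKM in HCT116.

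RefSeq (GRCh38.p14) gave 6 starts for 4 members, and the 250 bases before each were searched on both strands for an AP-1 motif (TGANTCA, N being any base) and for the NF-kB consensus. AP-1 and NF-kB are transcription factors that TNF-α is known to activate. The stretches of 30 bases below are the ones with an AP-1 match, in capitals. They lie at chr19:43670338-43670367 (minus strand, 198 to 169 bases before the PLAUR start) and chr18:63887591-63887620 (plus strand, 114 to 85 bases before the SERPINB2 start).
PLAUR: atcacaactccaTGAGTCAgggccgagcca
SERPINB2: tgagtaaaatgtTGAATCActcaaaggaca
PLAUR and SERPINB2 had 1 AP-1 place each, and none was found in the windows of PLAU and SERPINE2. No member window held the NF-kB consensus. Of all 35116 RefSeq windows of that length, 6.57% held the AP-1 motif and 5.21% the NF-kB consensus. Not all of these windows are sequence outside genes. Exons of longer PLAUR transcripts in GENCODE v29 cover all 250 bases of the PLAUR window. The PLAU windows end 1778 and 2300 bases inside the outer edge of the RefSeq gene and lie wholly on exons of C10orf55, a gene on the opposite strand, and those of SERPINE2 end 646 and 7808 bases inside its edge. The bases before the outer edges of PLAU and SERPINE2 were therefore not searched. A match describes letters and is no evidence of binding, and the lack of one holds for these windows alone.

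In untreated cells every tested member was higher in HCT116 than in HepG2. SERPINE2 was the most abundant member in both lines, with 19.1, 19.6 and 18.8 FPKM in HCT116 NC and 4.06, 3.86 and 3.84 FPKM in HepG2 NC. PLAUR averaged 8.22 FPKM in HCT116 and 1.09 FPKM in HepG2, and PLAU averaged 5.01 FPKM in HCT116 and 1.26 FPKM in HepG2. PLAT averaged 2.18 FPKM in HCT116 and 0.264 FPKM in HepG2. The libraries of the lines did not overlap for any of these 4 genes. On the log2(FPKM + 1) scale the differences were 2.14 for PLAUR (SE 0.11, adjusted p = 4.86e-21), 2.04 for SERPINE2 (SE 0.05, adjusted p = 5.14e-33), 1.41 for PLAU (SE 0.07, adjusted p = 1.13e-20) and 1.33 for PLAT (SE 0.07, adjusted p = 1.10e-21), by limma with Benjamini-Hochberg adjustment over 12992 genes. This scale understates low genes: by ratio of means PLAT differed most, at 8.26, followed by PLAUR at 7.54, SERPINE2 at 4.89 and PLAU at 3.99, and voom put the PLAT log2 difference at 3.05 (2.66 where 0.1 was added to FPKM). Between the lines 85.6% of all genes tested were called, so a count of 4 members of 4 is close to what any genes would give. Genes entered this test if they reached 1 FPKM in 3 or more of the 27 libraries of either line. PLAT did so through HCT116 alone, with 27 libraries at 1 FPKM or more there and 0 in HepG2. The filter thus favoured the direction found for PLAT, and its p adds no support. SERPINB2 averaged 0.0227 FPKM in HCT116 NC and 0.0477 FPKM in HepG2 NC and was not tested.

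PLAU (chr10:73908832-73917494, plus strand) reached the highest levels of any activator in the table of members, and it did so in HCT116 under TNF-α. After 3 h of TNF-α the HCT116 libraries had 90.3, 93.3 and 95 FPKM, and after 6 h they had 33.2, 34.0 and 35.9 FPKM. HCT116 NC had 4.77, 4.62 and 5.63 FPKM. No TNF-α library came near the control range at either hour. The mean was 18.5 times that of NC at 3 h and 6.86 times at 6 h, and the differences on the log2(FPKM + 1) scale were 3.97 (95% interval 3.83 to 4.11, adjusted p = 6.21e-21 by limma) and 2.56 (2.42 to 2.70, adjusted p = 1.61e-17 by limma). In bulk RNA, more cells carrying a transcript and more transcript per cell cannot be told apart.

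PLAU was also higher than NC in HCT116 after 3 h of the other 3 treatments. IL-6 libraries had 14.2, 14.9 and 16.2 FPKM, IL-10 libraries 16.4, 15.6 and 14.5 FPKM, and Torin1 libraries 14.6, 17.9 and 15.8 FPKM. These 3 groups overlapped each other, and each stood at 3.02 to 3.21 times the NC mean (log2 differences of 1.42, 1.46 and 1.51, adjusted p = 8.53e-12, 3.22e-12 and 2.83e-13 by limma). By 6 h the levels were 5.08, 4.99 and 4.80 FPKM with IL-6, 5.61, 4.86 and 4.88 FPKM with IL-10 and 5.63, 5.50 and 5.77 FPKM with Torin1, all 3 overlapping NC. No call against NC was made for them at 6 h, with 95% intervals on the log2 scale of -0.15 to 0.13 for IL-6, -0.11 to 0.17 for IL-10 and 0.00 to 0.29 for Torin1. Since NC has no hour and all 4 treatments had the 3 h peak, an effect common to the 4 additives cannot be told apart from one of handling or time since the medium was changed.

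**Figure D1:**
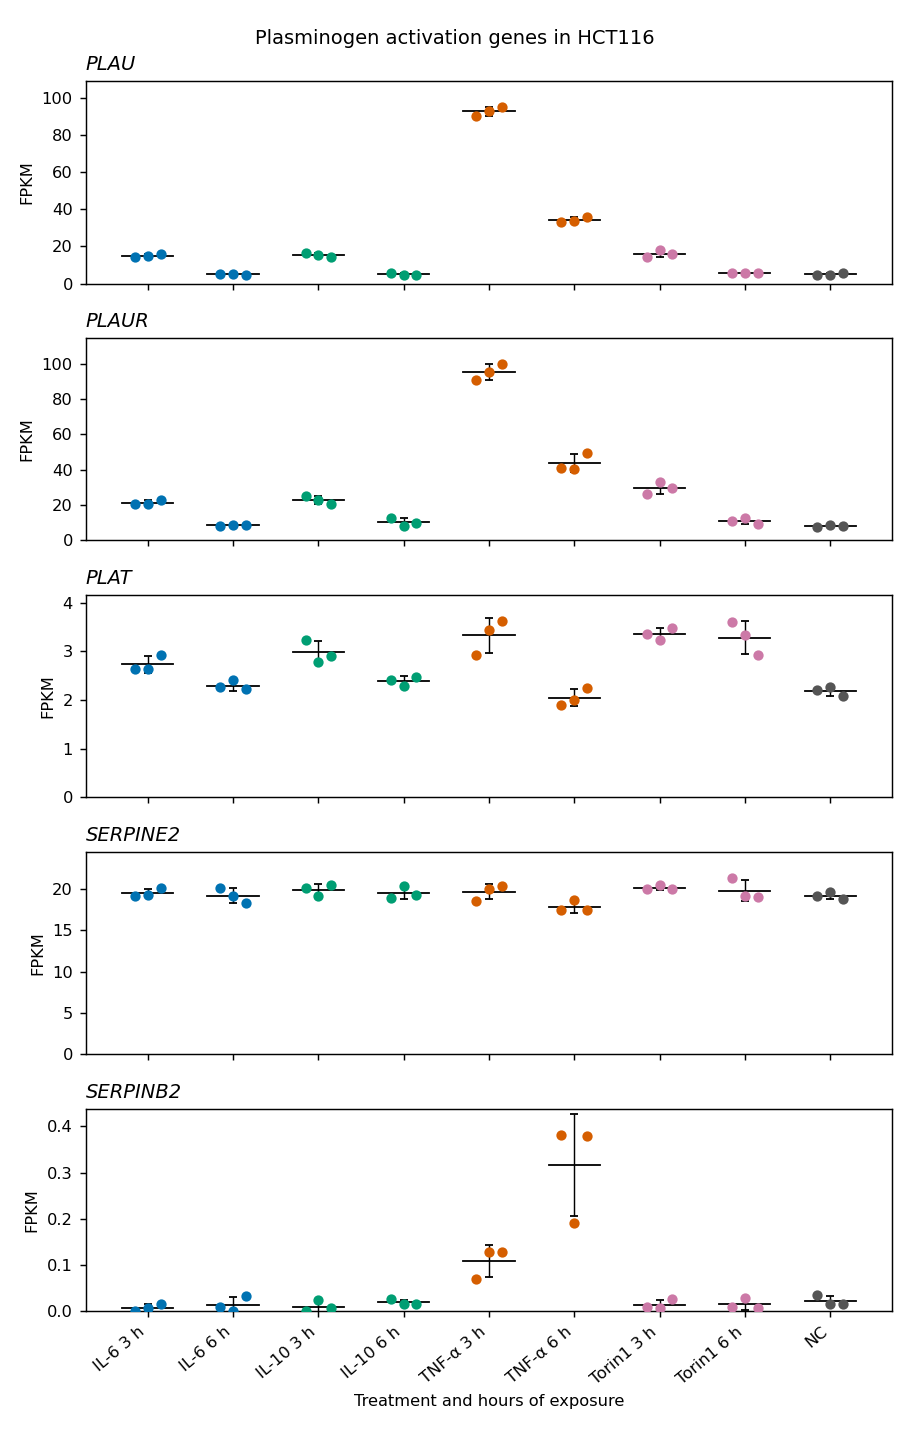
FPKM of the 5 genes in HCT116 by treatment and hours of exposure (NC at the right); points are libraries, horizontal lines group means and bars SD (n = 3). PLAU and PLAUR were highest after 3 h of TNF-α (means of 92.9 and 95.1 FPKM), SERPINE2 stayed between 17.4 and 21.3 FPKM, and SERPINB2 was highest after 6 h of TNF-α (mean 0.317 FPKM).

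The order of the PLAU means in HCT116 was TNF-α 3 h, TNF-α 6 h, then Torin1, IL-10 and IL-6 at 3 h, then Torin1 and IL-10 at 6 h, NC and IL-6 at 6 h. The first step down, the second, and the one between IL-6 3 h and Torin1 6 h separated libraries that did not overlap, and within the last 2 blocks neighbours overlapped. PLAU shares 916 exon bases with C10orf55 on the opposite strand (GENCODE v29), and the sources used here do not say whether the libraries keep strand, so reads in that stretch cannot be told apart. C10orf55 itself was listed at 1.05 ± 0.179 FPKM after 3 h of TNF-α and at 0.0473 ± 0.0195 FPKM in NC of HCT116 (SD, n = 3 each), far under PLAU.

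In HepG2, PLAU was higher with TNF-α at both hours. Libraries had 7.34, 7.13 and 7.17 FPKM after 3 h and 7.16, 6.66 and 7.93 FPKM after 6 h, against 1.26, 1.38 and 1.12 FPKM in NC. The means were 5.75 and 5.77 times that of NC, a log2 difference of 1.87 at each hour (95% interval 1.71 to 2.03 at both, adjusted p = 8.87e-14 at 3 h and 1.72e-13 at 6 h by limma). IL-6, IL-10 and Torin1 left no PLAU call against NC in HepG2, and their 18 libraries lay between 0.762 and 1.5 FPKM. The HepG2 levels after TNF-α overlapped between the hours, and every neighbouring pair below them in the order of means also overlapped.

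**Figure D2:**
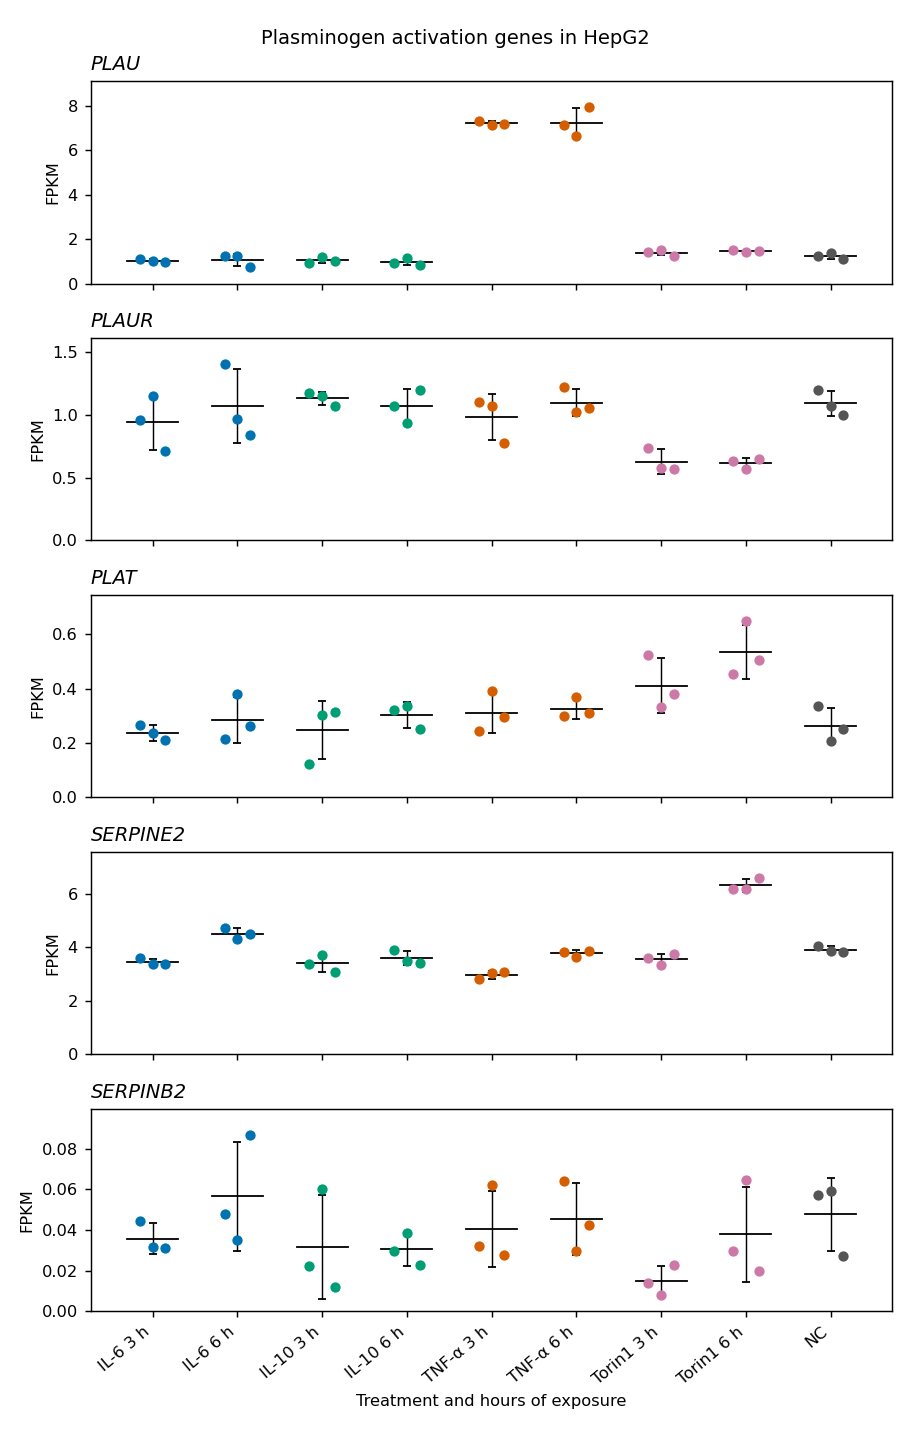
FPKM of the 5 genes in HepG2, drawn as for HCT116 (points are libraries, lines means, bars SD, n = 3). PLAU stood at 7.21 and 7.25 FPKM with TNF-α and at 1.26 FPKM in NC; PLAUR was lowest with Torin1; SERPINE2 was highest after 6 h of Torin1 (mean 6.32 FPKM).

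PLAT, the second activator, changed less. In HCT116 it had 2.93, 3.44 and 3.62 FPKM after 3 h of TNF-α, 3.35, 3.23 and 3.49 FPKM after 3 h of Torin1 and 3.60, 3.34 and 2.92 FPKM after 6 h of Torin1, against 2.21, 2.26 and 2.08 FPKM in NC. At 3 h all 4 treatments were called higher than NC, with log2 differences of 0.23 for IL-6 (adjusted p = 0.00829), 0.32 for IL-10 (0.000402), 0.44 for TNF-α (7.87e-06) and 0.45 for Torin1 (2.99e-06, all by limma). At 6 h Torin1 alone was called, at 0.43 (adjusted p = 5.61e-06 by limma), while TNF-α stood at -0.06 (95% interval -0.19 to 0.07). In the order of means, TNF-α was second at 3 h and last at 6 h, below NC, with 1.89, 2.01 and 2.24 FPKM.

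In HepG2, PLAT did not reach 1 FPKM in any of the 27 libraries (0.123 to 0.648 FPKM, 20 to 98 reads) and was left out of the test. Torin1 libraries at 6 h had 0.453, 0.648 and 0.504 FPKM, against 0.335, 0.207 and 0.251 FPKM in NC, and these did not overlap. With no filter on low values, over 31844 genes, the log2(FPKM + 1) difference was 0.28 (adjusted p = 0.00329 by limma).

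PLAUR (chr19:43646095-43670169, minus strand) followed PLAU closely in HCT116. After TNF-α it had 90.6, 95.2 and 99.6 FPKM at 3 h and 40.8, 40.5 and 49.6 FPKM at 6 h, against 7.79, 8.73 and 8.13 FPKM in NC. Every TNF-α library was far above every NC library at both hours. The log2 differences were 3.38 at 3 h (95% interval 3.13 to 3.64, adjusted p = 2.30e-15) and 2.27 at 6 h (2.02 to 2.52, adjusted p = 3.48e-12, both by limma), and the ratios of means were 11.6 and 5.31.

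The receptor was also higher than NC in HCT116 with the other treatments at 3 h. Torin1 libraries had 26.5, 33.3 and 29.7 FPKM, IL-10 libraries 25, 22.8 and 20.4 FPKM, and IL-6 libraries 20.8, 20.5 and 22.8 FPKM. Against NC the log2 differences were 1.74, 1.36 and 1.28 (adjusted p = 1.68e-10, 4.47e-08 and 1.39e-07 by limma). Torin1 libraries were all above those of IL-10, whereas IL-10 and IL-6 overlapped. At 6 h PLAUR remained called with Torin1, at 11.3, 12.9 and 9.08 FPKM and a log2 difference of 0.38 (adjusted p = 0.0111 by limma), but the call ended without the second Torin1 library (0.27, adjusted p = 0.0813 by limma). With IL-6 and IL-10 at 6 h the 95% intervals were -0.21 to 0.30 and 0.02 to 0.53 and neither was called; without the second IL-10 library the IL-10 difference was called at 0.40 (adjusted p = 0.0376 by limma).

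PLAUR in HepG2 went another way. It was at 0.566 to 1.40 FPKM over all 27 libraries (67 to 212 reads). TNF-α libraries had 1.1, 1.07 and 0.773 FPKM at 3 h and 1.22, 1.02 and 1.05 FPKM at 6 h, against 1.2, 1.07 and 1.00 FPKM in NC, and overlapped them. The 95% intervals of the log2(FPKM + 1) difference were -0.27 to 0.11 and -0.18 to 0.19. With Torin1 the receptor stood at 0.738, 0.579 and 0.566 FPKM at 3 h and at 0.628, 0.566 and 0.644 FPKM at 6 h, every library below NC (log2 differences of -0.36, adjusted p = 0.00268, and -0.37, adjusted p = 0.00132, by limma). IL-6 and IL-10 gave no call.

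SERPINE2 (chr2:223975045-224039286, minus strand), the most abundant inhibitor of the members, was nearly flat in HCT116. Its 27 libraries lay between 17.4 and 21.3 FPKM and none of the 8 treated groups was called against NC, with every log2 difference between -0.10 and 0.07. After 6 h of TNF-α its 3 libraries had 17.4, 18.7 and 17.4 FPKM, all below the NC libraries, and the difference of -0.10 missed the threshold (adjusted p = 0.0840 by limma). With the FPKM rescaled to equal sums it was called at -0.18 (adjusted p = 0.00278), and likewise without the second TNF-α 6 h library at -0.13 (adjusted p = 0.0375, both by limma).

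In HepG2 SERPINE2 moved with 4 treatments in both directions. After 6 h of Torin1 it had 6.2, 6.18 and 6.59 FPKM, against 4.06, 3.86 and 3.84 FPKM in NC, 1.61 times the NC mean (log2 difference 0.57, adjusted p = 3.62e-09 by limma). After 3 h of TNF-α it had 2.80, 3.06 and 3.08 FPKM, below every NC library (-0.31, adjusted p = 7.28e-05 by limma). Both sets stood outside the NC range. IL-6 at 3 h (3.60, 3.38 and 3.38 FPKM) and IL-10 at 3 h (3.39, 3.73 and 3.08 FPKM) were called lower, and IL-6 at 6 h (4.74, 4.30 and 4.51 FPKM) higher, with log2 differences of -0.14, -0.16 and 0.16 (adjusted p = 0.0322, 0.0262 and 0.0249 by limma). These 3 small calls were fragile. The IL-6 3 h call ended without IL-6 3 h library 2 or 3 or NC library 1 or 2 (-0.15 to -0.12). The IL-10 3 h call ended without IL-10 3 h library 1 or 3 or NC library 1 or 2 (-0.17 to -0.11). The IL-6 6 h call ended without IL-6 6 h library 1 or 3 or NC library 2 or 3 (0.14 to 0.16). Torin1 at 3 h was not called (-0.11), but was at -0.14 without its library 3 (adjusted p = 0.048 by limma).

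SERPINB2 (chr18:63887705-63903888, plus strand) was at the floor of detection and passed the filter in neither line. In HCT116 it had 0.0693, 0.129 and 0.128 FPKM after 3 h of TNF-α and 0.381, 0.190 and 0.380 FPKM after 6 h, against 0.0357, 0.0159 and 0.0166 FPKM in NC. TNF-α libraries were above all 21 others of the line, of which 3 were listed at 0. The reads summed to 86 (exact Poisson 95% interval 68.8 to 106), 227 (198 to 259) and 16 (9.15 to 26) over the 3 libraries of TNF-α 3 h, TNF-α 6 h and NC; these intervals cover counting error only, and they assume independent reads, although 26 of the 27 HCT116 values were even (16 of 27 in HepG2). With no filter the log2(FPKM + 1) differences were 0.12 at 3 h (adjusted p = 0.0367) and 0.36 at 6 h (adjusted p = 4.10e-07, both by limma over 33683 genes), and 6 h was above 3 h by 0.25 (adjusted p = 8.37e-05 by limma). In HepG2 it stayed between 0.00823 and 0.0867 FPKM with 2 to 20 reads in a library. SERPINB2 shares 547 exon bases with its neighbour SERPINB10 on the same strand (GENCODE v29), so reads in that stretch cannot be told apart. The part of SERPINB10 in the reads above was not tested.

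**Figure D3:**
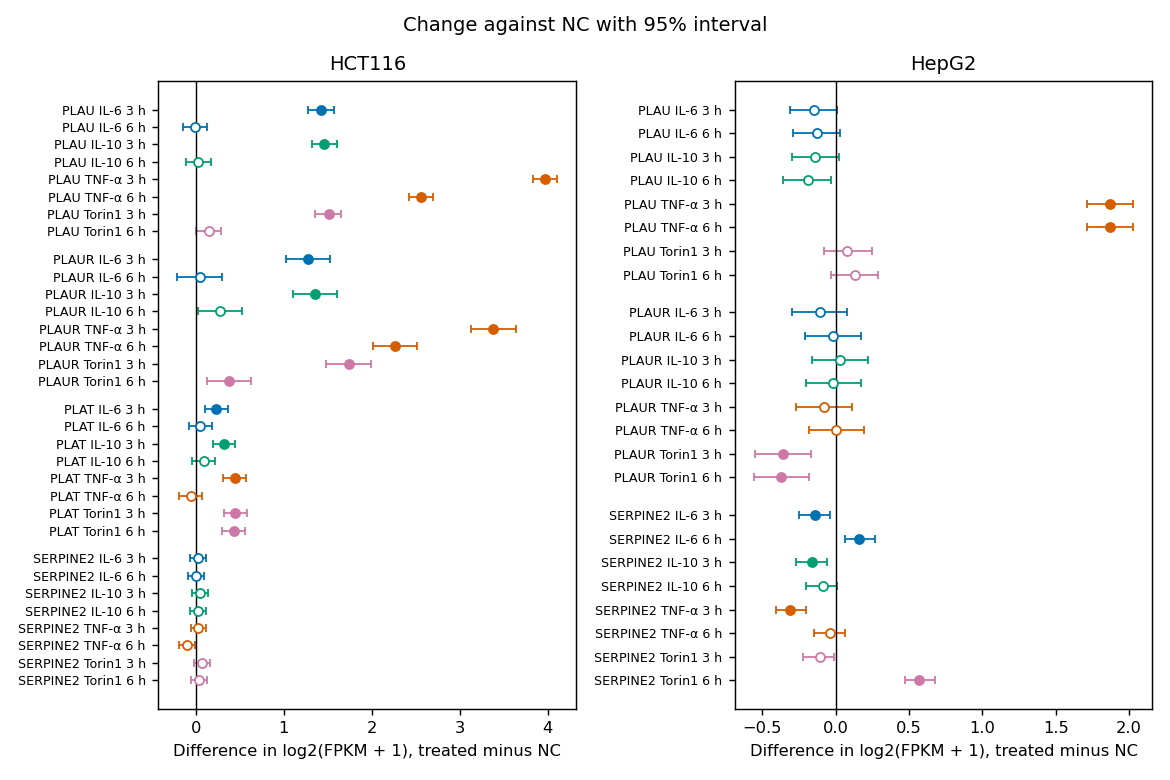
Difference in log2(FPKM + 1) between each treated group and NC, with 95% intervals, for the members tested in HCT116 (left) and HepG2 (right); filled points were called at an adjusted p under 0.05, and the horizontal scales differ. TNF-α gave the widest shifts of PLAU in both lines and of PLAUR in HCT116, and Torin1 the lowest PLAUR values in HepG2.

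The calls against NC stand against a background in which large shares of all genes were called. In HCT116 at 3 h each treatment called 3 of 4 members, all higher, where 31.6% of 11395 genes were called in either direction after IL-6, 38.8% after IL-10, 41.6% after TNF-α and 53.7% after Torin1. At 6 h TNF-α called 2 of 4 (33.9% of all genes) and Torin1 2 of 4 (57.2%). IL-6 at 6 h called 0 of 4 (16.6% of all genes) and IL-10 at 6 h 0 of 4 (20.5%) by limma, with 0 and 1 at an unadjusted p under 0.05 and 0 in both by voom on the recovered reads. In HepG2 at 3 h the members called were 1 of 3 after IL-6 (33.9% of 11280 genes), 1 after IL-10 (19.1%), 2 after TNF-α (29.7%) and 1 after Torin1 (45.5%). At 6 h they were 1 after IL-6 (19.4%), 0 after IL-10 (11.7%; 1 at an unadjusted p under 0.05, 0 by voom), 1 after TNF-α (28.7%) and 2 after Torin1 (59.9%). With 3 or 4 members tested, counts of 1 to 3 say little beside such shares. Counted from the largest increase down, PLAU ranked 4 and PLAUR 7 of 11395 genes after 3 h of TNF-α in HCT116, where the median over all genes was 0.00. PLAU ranked 14 of 11280 in HepG2 at the same hour.

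Markers of other cell types were low in HCT116 but not constant. The summed level of the 9 blood, fibroblast and endothelial markers was 6.11 to 6.58 FPKM after 3 h of TNF-α and 7.07 to 7.67 FPKM after 6 h, against 4.69 to 4.82 FPKM in NC. Nearly all of it came from CD68 (2.86 to 6.55 FPKM over the line) and COL1A1 (0.674 to 1.81 FPKM). Of the other 7, CD14 reached 0.219 FPKM in HCT116, and PTPRC, COL1A2, PDGFRB, PECAM1, VWF and CDH5 did not pass 0.0674 FPKM in any library of the line. The part of these markers in the results was not tested. In HepG2 the sum was 33.3 to 34.7 FPKM after 3 h and 29.1 to 30.5 FPKM after 6 h of TNF-α, against 31.2 to 34.9 FPKM in NC. Most of it came from CD68 (24.2 to 35.6 FPKM over the line), while CD14 reached 2.53 FPKM, PDGFRB 1.16 FPKM and PECAM1 0.619 FPKM.

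Setting each treatment against IL-10 of the same hour removes the difference in time, since NC has none. IL-10 is itself a treatment (at 3 h, 38.8% of genes called against NC in HCT116 and 19.1% in HepG2). Its own change therefore enters these differences. In HCT116 the TNF-α difference of PLAU was then 2.51 at 3 h (95% interval 2.37 to 2.65) and 2.53 at 6 h (2.39 to 2.68), and that of PLAUR 2.02 (1.77 to 2.28) and 2.00 (1.74 to 2.25). In ratios of means these were 5.98 and 6.72 for PLAU and 4.19 and 4.24 for PLAUR. The PLAU adjusted p-values were 1.97e-17 and 2.40e-17 and those of PLAUR 2.53e-11 and 3.24e-11, by limma. In HepG2 the PLAU difference was 2.01 at 3 h (1.84 to 2.17, adjusted p = 7.57e-14 by limma) and 2.06 at 6 h (1.90 to 2.22, adjusted p = 2.15e-14 by limma). The HepG2 ratios of means were 6.88 and 7.45, above those of HCT116, so the order of the lines for PLAU depends on the scale. It depends on the reference group too, since against NC the ratios were 18.5 and 6.86 in HCT116 and 5.75 and 5.77 in HepG2. PLAU in HepG2 averaged 1.05 and 0.972 FPKM with IL-10 and 1.26 FPKM in NC, with no call between them. Against IL-10, the intervals of the 2 hours overlapped for both genes, while the PLAU level of HCT116 was lower at 6 h in both groups. PLAUR in HepG2 gave -0.11 and 0.02 (95% intervals -0.30 to 0.08 and -0.17 to 0.21).

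No member was called between IL-6 and IL-10 in HCT116. Against IL-10, IL-6 called 0 of 4 members at 3 h (0.237% of all genes) and 0 of 4 at 6 h (0.114%) by limma, with 0 at an unadjusted p under 0.05 and 0 by voom at each hour. The 95% intervals for PLAU were -0.18 to 0.11 at 3 h and -0.18 to 0.10 at 6 h. TNF-α called 2 members at 3 h (36.5% of all genes) and 3 at 6 h (42.3%), PLAU, PLAUR and SERPINE2, with SERPINE2 lower at 17.8 against 19.5 FPKM (-0.12, adjusted p = 0.0274 by limma). That call ended without TNF-α 6 h library 1 or 3 or IL-10 6 h library 2 (-0.11 to -0.10). PLAT after 6 h of TNF-α averaged 2.05 FPKM, against 2.39 FPKM with IL-10, and just missed the threshold (-0.15, adjusted p = 0.0521 by limma); without TNF-α 6 h library 3 it was called at -0.20 (adjusted p = 0.0271 by limma).

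Torin1 set against IL-10 in HCT116 called 1 of 4 members at each hour, where 44.3% of all genes were called at 3 h and 57.3% at 6 h. At 3 h it was PLAUR (29.8 against 22.7 FPKM, 0.38, adjusted p = 0.0156 by limma), a call that ended without Torin1 3 h library 2 (0.30, adjusted p = 0.0871) or IL-10 3 h library 3 (0.31, adjusted p = 0.0788, both by limma). At 6 h it was PLAT (3.29 against 2.39 FPKM, 0.34, adjusted p = 9.05e-05 by limma). PLAT at 3 h was not called for TNF-α (0.12) or Torin1 (0.13), but TNF-α was called without its first library (0.19, adjusted p = 0.0271) and Torin1 without IL-10 3 h library 1 (0.18, adjusted p = 0.0414, both by limma). PLAU after 6 h of Torin1 was not called against IL-10 (0.12) or NC (0.15), but was called at 0.18 without IL-10 6 h library 1 and at 0.22 without NC library 3.

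In HepG2 against IL-10, IL-6 called 0 of 3 members at 3 h by limma (22.8% of all genes; 0 at an unadjusted p under 0.05 and 0 by voom) and 1 at 6 h (23.6%), SERPINE2 (4.52 against 3.61 FPKM, 0.26, adjusted p = 0.000718 by limma). TNF-α called PLAU alone at 3 h (16.1%) and at 6 h (34.8%); SERPINE2 at 3 h missed the threshold at -0.14 (adjusted p = 0.0611) but was called at -0.19 without IL-10 3 h library 3 (adjusted p = 0.0171, both by limma). Torin1 called 2 members at 3 h (45.5%) and 3 at 6 h (59.0%). PLAUR was lower at both hours (-0.39, adjusted p = 0.00142, and -0.36, adjusted p = 0.00193, by limma). PLAU was higher at 6 h (1.46 against 0.972 FPKM, 0.32, adjusted p = 0.00123 by limma) and at 3 h (1.39 against 1.05 FPKM, 0.22, adjusted p = 0.0223 by limma), and the 3 h call ended without Torin1 3 h library 1 or 2 or IL-10 3 h library 1 or 3 (0.18 to 0.21). Against NC, with its mean of 1.26 FPKM, the PLAU differences with Torin1 were 0.13 at 6 h and 0.08 at 3 h, and neither was called. SERPINE2 at 6 h was higher by 0.67 (adjusted p = 3.04e-10 by limma).

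**Figure D4:**
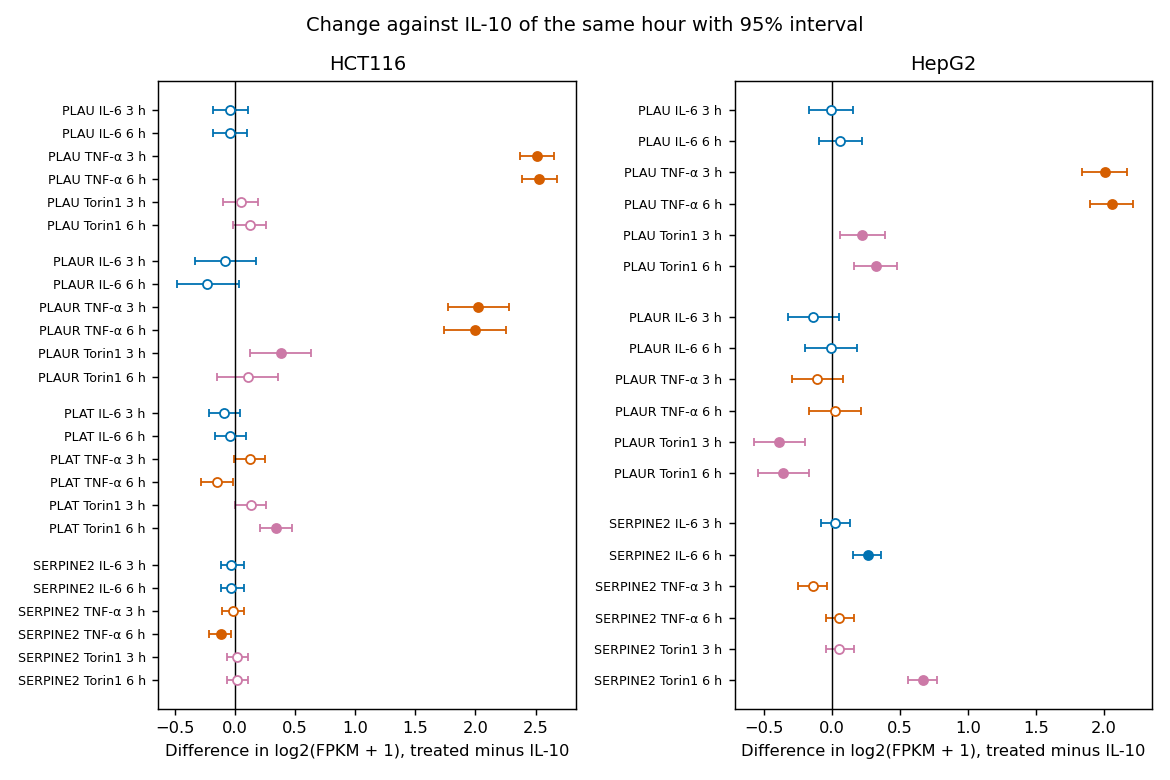
Difference in log2(FPKM + 1) between IL-6, TNF-α or Torin1 and IL-10 of the same hour, with 95% intervals, in HCT116 (left) and HepG2 (right); filled points were called at an adjusted p under 0.05, and the horizontal scales differ. PLAU stood 2.01 to 2.53 above IL-10 with TNF-α in both lines and at both hours, while PLAUR did so in HCT116 (2.02 and 2.00).

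Between 3 h and 6 h, PLAU and PLAUR fell in HCT116 with every treatment. At 6 h PLAU stood at 0.328 times its 3 h mean with IL-6, 0.330 with IL-10, 0.370 with TNF-α and 0.350 with Torin1, and all 6 h libraries were below all 3 h libraries of their treatment. The log2 differences were -1.43, -1.43, -1.41 and -1.36 for PLAU and -1.23, -1.09, -1.11 and -1.36 for PLAUR, in the same order, the largest adjusted p of the 8 being 1.59e-06 by limma. The ratios lay close together although TNF-α levels were far above the others at both hours. PLAT fell with TNF-α (-0.50, adjusted p = 2.44e-06 by limma) and with IL-10 (-0.23, adjusted p = 0.0117 by limma); the IL-10 call ended without IL-10 3 h library 1 (-0.18, adjusted p = 0.0761) or IL-10 6 h library 2 (-0.21, adjusted p = 0.0514, both by limma). SERPINE2 was lower at 6 h with TNF-α by a small amount (-0.13, adjusted p = 0.0228 by limma), a call that ended without TNF-α 3 h library 2 or 3 or TNF-α 6 h library 1 or 3 (-0.12 to -0.11).

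In HepG2 no activator or receptor call was made between the hours. PLAU with TNF-α gave 0.00 (95% interval -0.16 to 0.16). SERPINE2 was higher at 6 h with Torin1 (6.32 against 3.55 FPKM, 0.69, adjusted p = 1.40e-09), IL-6 (4.52 against 3.45 FPKM, 0.31, adjusted p = 0.000115) and TNF-α (3.77 against 2.98 FPKM, 0.26, adjusted p = 0.000584, all by limma). In HCT116 the members called were 2 of 4 with IL-6 (18.4% of all genes), 3 with IL-10 (20.0%), 4 with TNF-α (37.3%) and 2 with Torin1 (30.4%). In HepG2 they were 1 of 3 with IL-6 (23.5%), 0 with IL-10 by limma (16.0%; 0 at an unadjusted p under 0.05 and 0 by voom), 1 with TNF-α (25.4%) and 1 with Torin1 (36.4%).

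The change against NC was compared between the lines in a fit of all 54 libraries, over the 9683 genes that passed the filter in both. PLAUR after 3 h of TNF-α differed by 3.47 (95% interval 3.15 to 3.78, adjusted p = 1.46e-20 by limma), the highest value of any gene in that comparison, from 3.38 in HCT116 and -0.08 in HepG2. PLAU after 3 h of TNF-α differed by 2.10 (1.89 to 2.31, adjusted p = 4.61e-19 by limma), from 3.97 in HCT116 and 1.87 in HepG2. Under the other settings of the fit this PLAU difference ran from 1.66 to 2.11 and stayed called, so its size depends on the scale. Its size also depends on the reference group. Measured against IL-10 at 3 h instead of NC, TNF-α gave PLAU differences of 2.51 in HCT116 and 2.01 in HepG2. The ratios of means were then 5.98 and 6.88, and this contrast between the lines was not tested. The 3 h responses to the other treatments differed as well, by 1.57 for PLAU and 1.39 for PLAUR with IL-6, 1.60 and 1.33 with IL-10, and 1.42 and 2.10 with Torin1, the largest adjusted p of these 6 being 3.11e-08 by limma. At 6 h PLAUR differed with TNF-α by 2.27 (adjusted p = 8.67e-15) and with Torin1 by 0.75 (adjusted p = 9.87e-05, both by limma). PLAU at 6 h of TNF-α differed by 0.69 (adjusted p = 2.92e-06), but by 0.32 with a pseudocount of 0.1 (adjusted p = 0.157) and by 0.23 with voom on the recovered reads (adjusted p = 0.317, all by limma), so this call depends on the scale.

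SERPINE2 differed between the lines with Torin1 at 6 h (-0.53, adjusted p = 2.27e-08 by limma), from 0.04 in HCT116 and 0.57 in HepG2, and with TNF-α at 3 h (0.34, adjusted p = 0.000175 by limma), from 0.03 and -0.31. Smaller differences were called at 3 h with IL-10 (0.21, adjusted p = 0.0170) and Torin1 (0.18, adjusted p = 0.0267, both by limma). The IL-10 call ended without HepG2 IL-10 3 h library 3 (0.16) or HepG2 NC library 1 (0.19), and the Torin1 call without HCT116 NC library 3, HCT116 Torin1 3 h library 2, HepG2 NC library 1 or HepG2 Torin1 3 h library 2 (0.15 to 0.17). IL-6 at 3 h missed the threshold at 0.17 (adjusted p = 0.0513 by limma) and was called without HCT116 NC library 2 (0.18) or HepG2 IL-6 3 h library 1 (0.19). The members called at 3 h were 2 of 3 with IL-6 (33.3% of all genes), 3 with IL-10 (24.4%), 3 with TNF-α (22.9%) and 3 with Torin1 (39.9%). At 6 h they were 0 with IL-6 (15.8%) and 0 with IL-10 (16.8%) by limma, with 1 each at an unadjusted p under 0.05 and 0 by voom, 2 with TNF-α (16.8%) and 2 with Torin1 (50.1%).

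The pattern of PLAU across the 9 groups of HCT116 was most like that of PLAUR among 11113 genes (Pearson r of group means of log2(FPKM + 1) 0.992), followed by NUAK2 (0.989) and HAPLN3 (0.985). For PLAUR the closest genes were NUAK2 (0.993), PLAU (0.992) and MB21D2 (0.989), and for PLAT they were APOBEC3C (0.976), GTF2IRD1 (0.972) and PLEKHB1 (0.970). In HepG2, over 11000 genes, PLAU was closest to TNIP1 (0.985), GATA6 (0.981) and IRAK2 (0.973). PLAUR was not among the 3 closest genes of PLAU there; the closest to PLAUR were SPR (0.982), BIN3 (0.977) and CHMP6 (0.976). SERPINE2 was closest to ZNF485 (0.988), ESS2 (0.984) and SLC38A7 (0.971) in HepG2 and, over a range of only a few FPKM, to CR2 (0.965), DNAJC12 (0.962) and TNIK (0.960) in HCT116. These coefficients describe 9 means that share libraries and carry no p.

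Of the 17 other activators and inhibitors listed with the zymogen, 6 were tested in HCT116 and 14 in HepG2. SERPINB8, a serpin of the same clade as SERPINB2, was higher with TNF-α in HCT116 at 3 h (4.22 ± 0.0648 against 1.51 ± 0.0233 FPKM, SD, n = 3 each; 1.06, adjusted p = 4.11e-12 by limma) and at 6 h (0.95). After 3 h of TNF-α, 3 of the 6 tested were higher and 1 lower in HCT116 (median 0.16, all genes 0.00), where 19.2% of all genes were higher and 22.4% lower. In HepG2 2 of 14 were higher and 0 lower (median 0.04, all genes -0.02), where 12.8% of all genes were higher and 16.9% lower. SERPING1, the C1 inhibitor, rose with IL-6 in HepG2 (7.27 ± 0.556 FPKM at 3 h, against 2.89 ± 0.494 FPKM in NC, SD, n = 3 each; 1.09, adjusted p = 2.22e-08 by limma), where 3 of 14 were higher and 3 lower (median 0.01, all genes -0.02), beside 14.5% higher and 19.5% lower of all genes.

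Of the 6 plasminogen receptors, all tested in both lines, 6 were lower in HepG2 after 6 h of Torin1 (median -0.24, all genes -0.03), with ENO1 at -0.30 and PLGRKT at -0.25, and 33.8% of all genes were lower. At 3 h 5 of 6 were lower (median -0.17, all genes -0.04), and 26.1% of all genes were. In HCT116 the same treatment at 6 h gave 2 higher and 0 lower, ANXA2 and S100A10 both at 0.25 (median 0.04, all genes -0.02), beside 25.8% higher and 31.5% lower of all genes. After 6 h of TNF-α in HCT116 KRT18 was lower by -0.38 and S100A10 higher by 0.37, with 2 higher and 2 lower in all, beside 16.7% higher and 17.1% lower of all genes.

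Of the 21 partners and clearance receptors of PLAUR, 9 were tested in each line. ITGAV, the integrin alpha chain that pairs with the vitronectin-binding beta chains, rose with TNF-α in HCT116 (23.7 ± 0.943 FPKM at 3 h, against 13.2 ± 0.0963 FPKM in NC, SD, n = 3 each; 0.80, adjusted p = 5.96e-12 by limma) and in HepG2 at 6 h (63.2 ± 2.82 against 41.5 ± 0.854 FPKM, SD, n = 3 each; 0.59, adjusted p = 1.07e-08 by limma). After 6 h of TNF-α in HCT116, 4 were higher, including EGFR (0.69) and ITGA5 (0.37), and 3 lower, including ITGA3 (-0.36), with a median of -0.06 (all genes -0.01), beside the same 16.7% higher and 17.1% lower of all genes. With Torin1 at 6 h in HCT116, 3 of 9 were higher, including ITGB5 (0.76) and EGFR (0.60), and 2 lower, ITGA5 (-0.38) and ITGA3 (-0.17), with a median of 0.07 (all genes -0.02), beside 25.8% higher and 31.5% lower of all genes.

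Of the 11 substrates of plasmin or of the activators, 3 were tested in HCT116 and 6 in HepG2. THBS1, encoding the matrix protein thrombospondin-1, had the widest changes. In HCT116 it averaged 37.8 ± 4.47 FPKM after 3 h of TNF-α, against 2.81 ± 0.439 FPKM in NC (SD, n = 3 each; 3.35, adjusted p = 1.90e-12 by limma), and like PLAU it was higher with IL-6, IL-10 and Torin1 at 3 h (1.56, 1.91 and 2.24) and lower at 6 h than at 3 h with all 4 treatments (-1.96 to -1.66). In HepG2 THBS1 was higher at 3 h with all 4 treatments too (1.31 to 2.08), while PLAU was called there with TNF-α alone (1.87). THBS1 was also lower at 6 h than at 3 h in HepG2 (-2.04 to -1.19), a contrast in which PLAU gave no call. The 3 fibrinogen chains, whose polymer is the target of plasmin in clots, were higher with IL-6 in HepG2 (FGB 1.25, FGG 1.09 and FGA 1.02 at 3 h), where 5 of 6 substrates were higher and 0 lower (median 1.05, all genes -0.02), beside 14.5% higher and 19.5% lower of all genes.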

How the data were processed

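Per the labels' protocols, paired-end poly(A) RNA libraries were read on an MGISEQ-2000RS. FastQC, HISAT2, StringTie, DESeq2 and the GRCh38 build are named in the submitters' processing notes; versions, strand settings and the counting tool stay unstated in the sources used here. Deposited by the authors were FPKM values for 54 libraries, matched to samples by title; 48 columns of 16 unnamed comparisons were not used. The Torin1 recovery group was not analysed here. The series text speaks of biological replicates, without naming separate cultures, so a p-value here reflects only how far the libraries of a group lie apart, possibly for technical reasons.

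Whole reads were recovered from the FPKM steps for 36448 of 36451 genes (99.99%, tolerance 0.01 read). Precision of low genes is limited by counting error. Each line was fitted with limma 3.58.1 in R 4.3.3 (trended empirical Bayes) on log2(FPKM + 1) with 1 mean per group, after a filter that kept genes reaching 1 FPKM in 3 or more of 27 libraries; a joint fit of 54 libraries compared the lines. On this scale the change of low genes is understated. Calls needed a Benjamini-Hochberg adjusted p under 0.05 over all genes tested. The fit was tested on simulated data. No 2 libraries of a group were duplicates by a chi-square comparison of reads (lowest ratio of chi-square to degrees of freedom 6.93).

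The 5 members and the other lists were chosen with earlier results of these data known. All members are named in every group. From other lists at most the 4 called genes with the largest change are named, except 1 that is not reported here though counted in its list, and likeness was read from the 3 highest r over genes with a single row. Alternatives were another pseudocount (0.1), no filter, 2 other scalings (median of ratios and equal sums), voom on recovered reads, only the libraries compared, a replicate block and each library left out.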

Additional observations from a re-analysis of the deposited data

Results flagged for a closer look

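Effects against NC that differed between the hours of a treatment are those called at 6 h against 3 h, since NC cancels. In HCT116 the log2 differences (6 h minus 3 h) were -1.43 with IL-6, -1.43 with IL-10, -1.41 with TNF-α and -1.36 with Torin1 for PLAU, and -1.23, -1.09, -1.11 and -1.36 for PLAUR. PLAT differed with IL-10 (-0.23) and TNF-α (-0.50), and SERPINE2 with TNF-α (-0.13). In HepG2 SERPINE2 differed with IL-6 (0.31), TNF-α (0.26) and Torin1 (0.69).

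Effects that differed between the lines (HCT116 minus HepG2) at 3 h were, for PLAU, 1.57 with IL-6, 1.60 with IL-10, 2.10 with TNF-α and 1.42 with Torin1. For PLAUR they were 1.39, 1.33, 3.47 and 2.10, and for SERPINE2 0.21 with IL-10, 0.34 with TNF-α and 0.18 with Torin1. At 6 h TNF-α gave 0.69 for PLAU and 2.27 for PLAUR, and Torin1 gave 0.75 for PLAUR and -0.53 for SERPINE2. Each was called by limma with Benjamini-Hochberg adjustment, and the contrast was the test of the difference itself. No group had the 4 libraries needed to ask whether 1 library stood apart.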

How the results depend on the processing

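Of 154 results on the tested members, 73 were called. Among 2146 values under the alternatives 2066 kept their side of the threshold, 55 lost the call and 25 gained one. The sign changed in 0 called values and in 75 uncalled values, and these 75 are counted in the 2066. Of the 45 results of PLAU 4 changed side under some alternative, of the 45 of PLAUR 3, of the 19 of PLAT 5 and of the 45 of SERPINE2 12. The cause was not tested. Values below are log2 differences.

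With a pseudocount of 0.1 calls lost were PLAU TNF-α 6 h effect between lines (0.32), and calls gained were PLAT HCT116 TNF-α 6 h against IL-10 6 h (-0.21), PLAT HCT116 IL-6 6 h against 3 h (-0.24), SERPINE2 IL-6 3 h effect between lines (0.20). With no filter calls lost were SERPINE2 HCT116 TNF-α 6 h against IL-10 6 h (-0.12), SERPINE2 HCT116 TNF-α 6 h against 3 h (-0.13), SERPINE2 HepG2 IL-6 3 h against NC (-0.14), SERPINE2 HepG2 IL-10 3 h against NC (-0.16), SERPINE2 HepG2 IL-6 6 h against NC (0.16), PLAU HepG2 Torin1 3 h against IL-10 3 h (0.22), SERPINE2 Torin1 3 h effect between lines (0.18). With median-of-ratios scaling calls lost were SERPINE2 HCT116 TNF-α 6 h against IL-10 6 h (-0.10), SERPINE2 HepG2 IL-6 3 h against NC (-0.13), SERPINE2 HepG2 IL-10 3 h against NC (-0.15), and calls gained were PLAU HCT116 Torin1 6 h against NC (0.17), PLAT HCT116 Torin1 3 h against IL-10 3 h (0.15), PLAU HCT116 Torin1 6 h against IL-10 6 h (0.16), PLAT HCT116 IL-6 6 h against 3 h (-0.19), SERPINE2 HepG2 TNF-α 3 h against IL-10 3 h (-0.15), SERPINE2 IL-6 3 h effect between lines (0.17). With equal sums calls lost were SERPINE2 HCT116 TNF-α 6 h against 3 h (-0.08), SERPINE2 HepG2 IL-6 6 h against NC (0.14), SERPINE2 Torin1 3 h effect between lines (0.09), and calls gained were SERPINE2 HCT116 TNF-α 6 h against NC (-0.18), PLAT HCT116 TNF-α 6 h against IL-10 6 h (-0.17), PLAT HCT116 IL-6 6 h against 3 h (-0.18), SERPINE2 IL-6 6 h effect between lines (-0.24). With only the libraries compared calls lost were SERPINE2 HCT116 TNF-α 6 h against IL-10 6 h (-0.12), PLAT HCT116 IL-10 6 h against 3 h (-0.23), SERPINE2 HCT116 TNF-α 6 h against 3 h (-0.13), SERPINE2 HepG2 IL-10 3 h against NC (-0.16), PLAU HepG2 Torin1 3 h against IL-10 3 h (0.22), SERPINE2 IL-10 3 h effect between lines (0.21), and calls gained were SERPINE2 IL-6 3 h effect between lines (0.17). With voom on recovered reads calls lost were PLAU TNF-α 6 h effect between lines (0.23).

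Leaving out each library in turn moved these results across the threshold, with the lowest and highest value in each: PLAT HCT116 Torin1 3 h against IL-10 3 h 0.10 to 0.18, PLAT HCT116 IL-10 6 h against 3 h -0.26 to -0.18, PLAUR HCT116 Torin1 3 h against IL-10 3 h 0.30 to 0.46, PLAU HCT116 Torin1 6 h against IL-10 6 h 0.09 to 0.18, PLAUR HCT116 IL-10 6 h against NC 0.12 to 0.40, SERPINE2 HCT116 TNF-α 6 h against IL-10 6 h -0.16 to -0.10, PLAU HCT116 Torin1 6 h against NC 0.10 to 0.22, PLAT HCT116 TNF-α 3 h against IL-10 3 h 0.07 to 0.19, SERPINE2 HCT116 TNF-α 6 h against 3 h -0.17 to -0.11, SERPINE2 HCT116 TNF-α 6 h against NC -0.13 to -0.08, PLAT HCT116 TNF-α 6 h against IL-10 6 h -0.20 to -0.12, PLAUR HCT116 Torin1 6 h against NC 0.27 to 0.50, SERPINE2 HepG2 IL-10 3 h against NC -0.22 to -0.11, PLAU HepG2 Torin1 3 h against IL-10 3 h 0.18 to 0.28, SERPINE2 HepG2 TNF-α 3 h against IL-10 3 h -0.19 to -0.09, SERPINE2 HepG2 IL-6 3 h against NC -0.17 to -0.12, SERPINE2 HepG2 IL-6 6 h against NC 0.14 to 0.19, SERPINE2 HepG2 Torin1 3 h against NC -0.14 to -0.08, SERPINE2 IL-6 3 h effect between lines 0.14 to 0.19, SERPINE2 Torin1 3 h effect between lines 0.15 to 0.21, SERPINE2 IL-10 3 h effect between lines 0.16 to 0.27.

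The replicate numbers did not pair the libraries (in 0 of 36 comparisons were all correlations of deviations over 0.1, and single correlations ran from -0.12 to 0.12), and with the replicate block PLAU after 3 h of TNF-α in HCT116 kept its difference from NC, 3.97, with 0 of 154 results changing side.

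The number of genes called moved by over 1.5 times in 14 of 45 comparisons: HCT116 IL-6 6 h against NC 1889, against 1123 to 1215 (5 alternatives); HCT116 IL-6 6 h against IL-10 6 h 13, against 2 to 133 (9 alternatives); HCT116 IL-10 6 h against NC 2332, against 1051 to 1295 (2 alternatives); HCT116 IL-6 3 h against IL-10 3 h 27, against 0 to 16 (4 alternatives); HCT116 IL-10 6 h against 3 h 2276, against 1015 (1 alternative); HepG2 IL-10 6 h against NC 1317, against 552 to 877 (6 alternatives); HepG2 IL-10 3 h against NC 2149, against 1364 to 3467 (3 alternatives); HepG2 IL-6 3 h against NC 3827, against 2221 (1 alternative); HepG2 IL-6 3 h against IL-10 3 h 2575, against 459 (1 alternative); HepG2 TNF-α 3 h against IL-10 3 h 1817, against 770 (1 alternative); HepG2 IL-6 6 h against 3 h 2649, against 930 (1 alternative); HepG2 IL-10 6 h against 3 h 1805, against 1020 (1 alternative); TNF-α 6 h effect between lines 1623, against 2530 (1 alternative); IL-10 6 h effect between lines 1630, against 518 to 1033 (2 alternatives). Equal sums shifted the median of all genes by -0.11 after 3 h of TNF-α in HCT116 and by 0.20 between the lines in NC. Depth limits PLAT in HepG2 and SERPINB2 in both lines, which rest on 0 to 98 reads in a library.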
